A study of Rattus norvegicus with 12 samples.

Results

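Expression of the inhibitor of DNA binding genes Id1, Id2, Id3 and Id4 and of the repressor gene Hes1 was examined in rat pituitary cultures given gonadotropin-releasing hormone (GnRH). Members were taken as every probe set whose single gene symbol in the platform annotation was 1 of these 5 genes. This gave 9 probe sets of the 31042 non-control probe sets on the array: 1 for Id1, 2 for Id2, 1 for Id3, 4 for Id4 and 1 for Hes1. Of these, 7 were bright enough to be tested among 18625 probe sets, and 2 probe sets of Id4 were not. All 5 genes had at least 1 tested probe set.

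The cells came from adult female Sprague-Dawley rats that had been ovariectomized for 2 weeks, with the pituitaries of 13 to 15 animals pooled in each experiment. Large cells were collected by sedimentation at unit gravity, and 40 to 60% of the collected pool stained for luteinizing hormone (LH), so other cell types were present in every culture. Both groups were kept in medium with 0.2 nM estradiol and 10% serum that had been stripped of steroids with charcoal. On day 3 of culture, 6 samples received 10 nM GnRH for 40 min and 6 received vehicle medium. The samples came from 3 preparations, called enrichment sets I, II and III, with 2 vehicle and 2 GnRH samples in each. Samples 1 and 2 of each group belong to set I, 3 and 4 to set II, and 5 and 6 to set III. Each sample is titled a biological replicate, but no label says that the 2 wells of a set were separate cultures. The p-values then measure only the spread between these samples, which may be technical.

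GnRH, the hypothalamic decapeptide, acts on a Gq-coupled receptor of gonadotropes and turns on a wave of early-response genes. ID proteins have a helix-loop-helix domain but no basic region, so they bind E proteins and keep them off DNA. Their genes are classical targets of bone morphogenetic protein (BMP) signalling through SMAD factors and also respond to serum and growth factors. HES1 is a basic helix-loop-helix repressor that recruits TLE corepressors, is induced by Notch through the DNA-binding factor RBPJ, and represses its own promoter through N boxes. In the developing pituitary HES1 is known for keeping progenitors undifferentiated.

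Promoter sequence upstream of the gene is shown for the 3 genes on which the results below turn most, Hes1, Id1 and Id2, to place known elements beside the expression values. Sequences were taken from RefSeq on the GRCr8 assembly and are written on the strand of the gene, 5′ to 3′. Each promoter window holds the 250 bases before the start site that the RefSeq promoter table uses. The RefSeq gene record of Id1 begins 39 bases and that of Id3 38 bases before that start site, so the Id1 sequence printed here stops at the gene record, after 211 bases. In the Hes1 window, at chr11:84213046-84213295 on the minus strand, capitals mark the RBPJ core (TGGGAA) and the N box (CACNAG). In the Id1 sequence, at chr3:161671314-161671524 on the plus strand, capitals mark the TATA box (TATAAA). In the Id2 window, at chr6:47470996-47471245 on the minus strand, capitals mark the CCAAT box.
Hes1: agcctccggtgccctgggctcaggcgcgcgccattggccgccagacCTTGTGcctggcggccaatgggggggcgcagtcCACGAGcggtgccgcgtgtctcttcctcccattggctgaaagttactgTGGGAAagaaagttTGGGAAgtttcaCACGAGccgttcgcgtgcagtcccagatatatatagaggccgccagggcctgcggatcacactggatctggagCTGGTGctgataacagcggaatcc
Id1: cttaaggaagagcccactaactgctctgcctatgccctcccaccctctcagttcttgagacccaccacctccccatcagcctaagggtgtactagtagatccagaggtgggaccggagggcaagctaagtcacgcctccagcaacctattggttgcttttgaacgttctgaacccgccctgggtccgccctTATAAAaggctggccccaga
Id2: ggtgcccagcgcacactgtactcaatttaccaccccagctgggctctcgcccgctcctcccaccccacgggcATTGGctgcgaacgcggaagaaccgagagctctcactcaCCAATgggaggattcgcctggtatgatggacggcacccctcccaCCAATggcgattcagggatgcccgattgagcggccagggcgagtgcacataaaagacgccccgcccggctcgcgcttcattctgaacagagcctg

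Motifs were searched on both strands, and positions count back from the base before the start site of the promoter table. The Hes1 window held 2 RBPJ cores, at -123 to -118 and -109 to -104, and 4 N boxes, which began at -204, -171, -97 and -24. It also held 3 CCAAT boxes. The RBPJ core occurred in 22.1% and the N box in 37.2% of 33469 promoter windows of the same length. The Id1 window held 1 TATA box at -59 to -54, 1 CCAAT box and, within its gene record, 1 E box (CANNTG). A TATA box was found in 12.9%, a CCAAT box in 34% and an E box in 65.5% of all windows. The Id2 window held 3 CCAAT boxes, beginning at -178, -139 and -95, and 1 E box. The windows of Id3 and Id4 held none of these motifs. None of the 5 windows held a cyclic AMP response half-site (TGACG, in 18.2% of all windows), a GC-rich SMAD element (GGCGCC, 8.69%), an EGR element (GCGNGGGCG, 4.29%) or a CArG box (1.5%). A match describes letters only, and the absence of a match says only that these letters are not in this window.

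The arrays differed in ways that touch the members. Signals of 18 bacterial spike-in probe sets had a geometric mean of 2264 to 11705 on 5 arrays, which were all 4 arrays of set I and vehicle 5, and of 53482 to 320024 on the other 7. Vehicle 3 was unlike the others: its median Spearman correlation with them was 0.34, and the remaining arrays had 0.62 to 0.69. The median signal of 27 control probe sets for Bacillus genes, which have no rat counterpart, was 10.3 to 26.2 in set I but reached 250 on vehicle 3. In set II the 2 vehicle arrays differed by a median of 1.10 on the log2 scale over the tested probe sets, against 0.40 for the vehicle arrays and 0.26 for the GnRH arrays of set I. Of 9 gonadotrope markers, 7 exceeded the 90th percentile of the Bacillus controls on all 12 arrays, among them Lhb, Fshb and Cga, the gonadotropin subunits. Gnrhr, the GnRH receptor gene, exceeded it on 6 of 12 arrays and Nr5a1 on 10 of 12.

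No ID or HES1 probe set passed the adjusted threshold of 0.05 for GnRH against vehicle. The count was 0 of 7, against 1 of 18625 tested probe sets (0.00537%). At an unadjusted p under 0.05 the count was also 0 of 7, against 3.45% of all tested probe sets. Hes1 had the highest difference, a 2.07-fold higher mean signal with GnRH whose 95% confidence interval ran from 0.987 to 4.34, with 2 vehicle values below the level of the Bacillus controls. Id1 was lower with GnRH in set I and higher in set II. The brighter of 2 Id2 probe sets differed between preparations, and the dimmer one did not pass that test. Fold changes were computed on signal plus 16, which understates the change of dim genes, and signals are not compared between probe sets. In these bulk cultures, fewer cells of a type and less RNA per cell cannot be told apart.

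**Figure D1:**
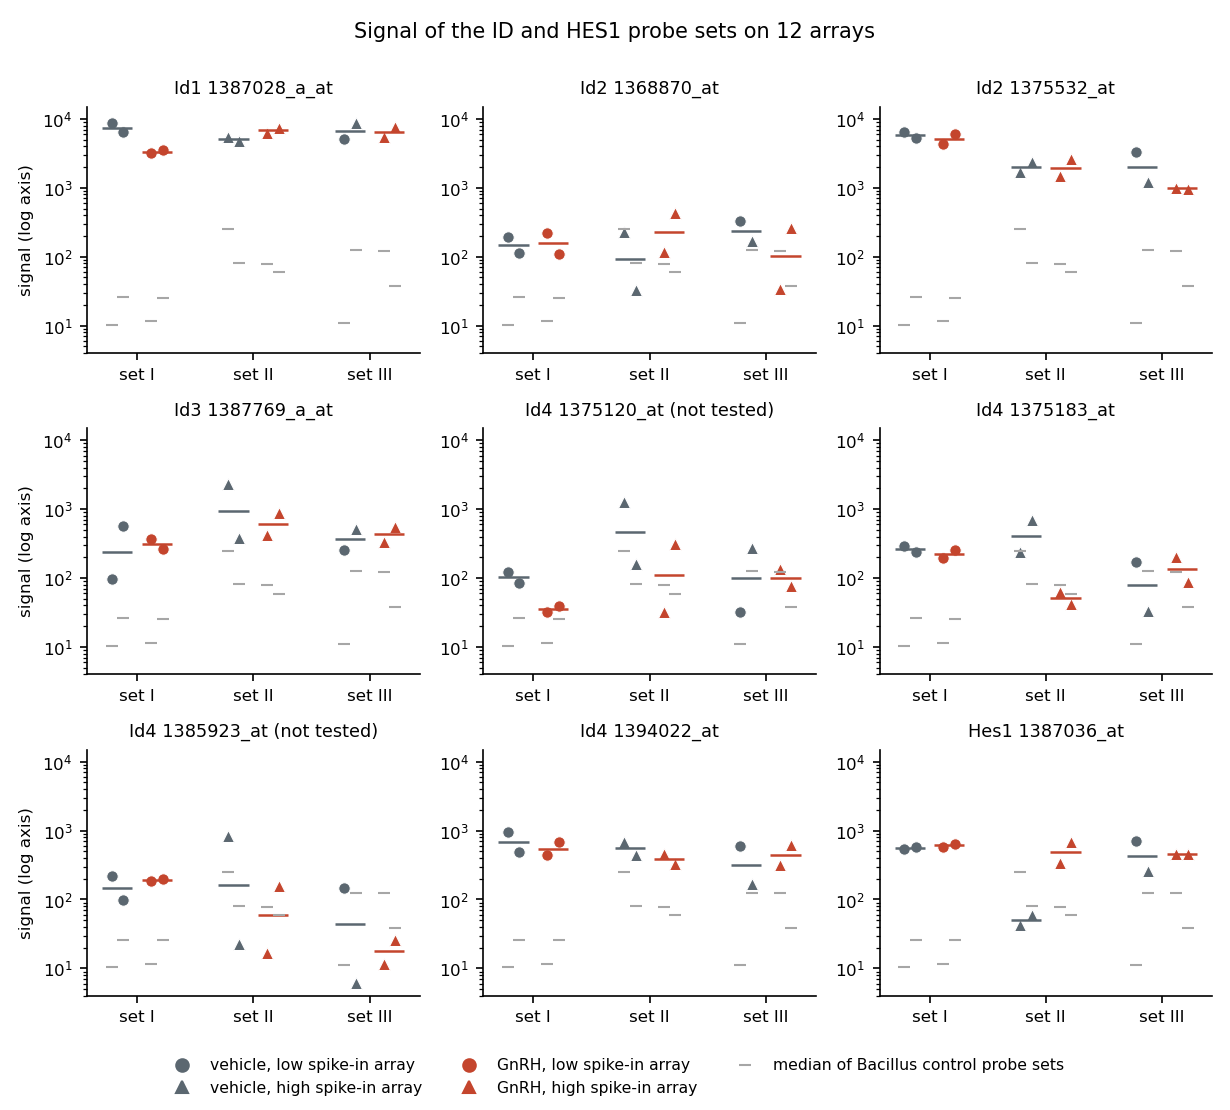
Signal of each of the 9 probe sets (log axis, arbitrary units after scaling) on 12 arrays by enrichment set, with vehicle in grey, GnRH in red, circles for the 5 arrays of low spike-in signal and triangles for the other 7. Horizontal bars are the geometric means of 2 arrays computed on signal plus 16, grey dashes are each array's median of the Bacillus controls, and the Hes1 panel shows vehicle 3 and vehicle 4 at 42.1 and 58.7 below those medians.

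Id1, which encodes an E-protein inhibitor that is a prototypical BMP target, was bright on all arrays and exceeded the 90th percentile of the Bacillus controls on 12 of 12. In set I its signal was 8777 and 6340 with vehicle and 3153 and 3495 with GnRH. Both GnRH values lay below both vehicle values. In set II the order was the opposite, with 5407 and 4768 for vehicle and 6263 and 7444 for GnRH. In set III the vehicle values were 5116 and 8630 and the GnRH values were 5422 and 7618, so the groups overlapped.

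Over all 12 arrays the vehicle signals of Id1 ranged from 4768 to 8777 (median 5874) and the GnRH signals from 3153 to 7618 (median 5843). The log2 difference was -0.26 ± 0.28 (SE, 6 arrays per group; limma adjusted p = 0.981), and the exact permutation test within sets, two-sided, gave p = 0.352. This corresponds to a fold of 0.834, with a 95% confidence interval of 0.551 to 1.26. Of the 36 GnRH-vehicle pairs, the GnRH array was the higher in 14.

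In set I the Id1 difference was -1.16 (2.24-fold lower with GnRH). It was 0.43 in set II (1.34-fold higher), while set III gave -0.05. A log2 difference of -1 or lower in set I was seen in 1.51% of tested probe sets, and Id1 was 1 of 7 members there. GnRH arrays lay below vehicle arrays without overlap in set I for 15.6% of tested probe sets, and above them in set II for 20.6%. Both held together for 2.6% of tested probe sets and for 1 of the 7 members, Id1. The set II response exceeded the set I response by 1.59 on the log2 scale (limma adjusted p = 0.974). The test over all 3 sets for an unequal response, limma's moderated F, gave an adjusted p of 0.924. No tested probe set passed that adjusted test (0%). At an unadjusted p under 0.05 it counted 5.36% of them and 1 of the 7 members, Hes1.

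The duplicate arrays behind the Id1 values differed by 0.47 and 0.15 on the log2 scale in set I for vehicle and GnRH, and by 0.18 and 0.25 in set II. Spike-in signal was low on all 4 arrays of set I, at 7634 and 7952 with vehicle and 7853 and 11705 with GnRH. In set I the summed signals of 8 marker lists differed between agents by -0.54 to 0.29 on the log2 scale. The lowest of these was the thyrotrope list, and the gonadotrope list differed by 0.21. The part of the spike-in level and of these lists in the Id1 difference was not tested.

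**Figure D2:**
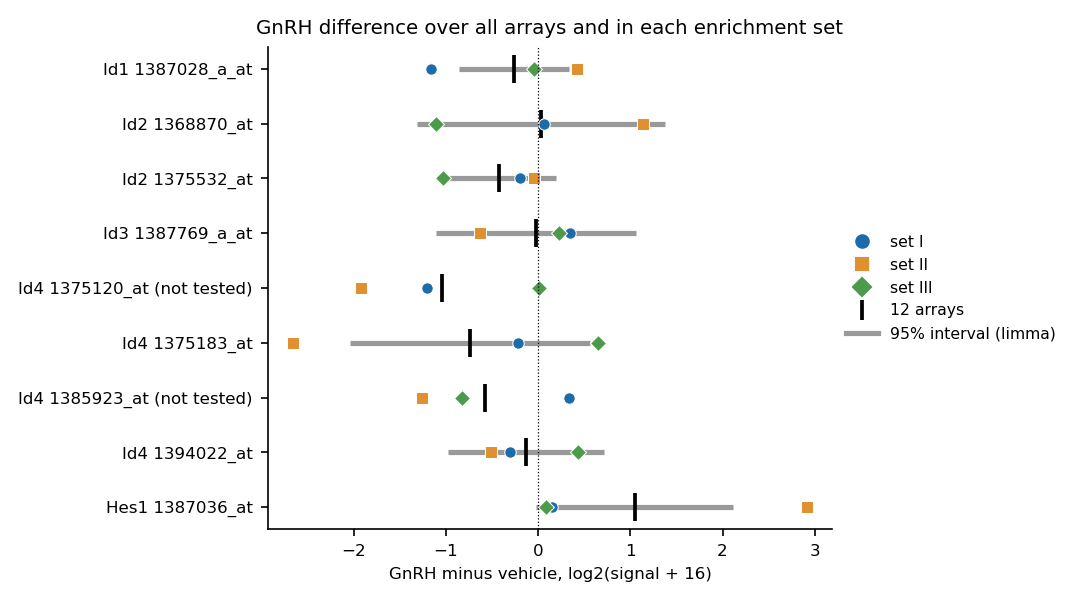
Difference between GnRH and vehicle on the log2(signal + 16) scale for each probe set, over all arrays (black bar; grey line, 95% confidence interval for tested probe sets) and in each enrichment set (coloured symbols, 2 arrays per agent). All 7 intervals cross 0, and Hes1 reaches 2.91 in set II against 0.15 in set I and 0.09 in set III.

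Hes1, the Notch-responsive repressor, lay close between agents in set I, overlapped in set III and was far apart in set II. In set I its signal was 534 and 569 with vehicle and 582 and 645 with GnRH, so both GnRH values were the higher by a small margin. In set II it was 42.1 and 58.7 with vehicle and 334 and 688 with GnRH. In set III it was 701 and 263 with vehicle and 457 and 462 with GnRH, and the groups overlapped.

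The 2 low vehicle values of set II lay at 0.168 and 0.728 times the median of the Bacillus controls on the same arrays. They were the only 2 of 12 arrays on which Hes1 lay below that median, and Hes1 exceeded the controls' 90th percentile on 8 of 12. The difference in set I was 0.15 (1.11-fold higher with GnRH) and that in set III 0.09 (1.06-fold). That in set II was 2.91, a difference against background and no measured fold. With signals below an array's control median raised to it, an alternative chosen after seeing the data, the set II difference was 1.63. A difference of 1 or more in set II was common, at 21.8% of tested probe sets, and 2 of the 7 members had it, Hes1 and the dimmer probe set of Id2. Among tested probe sets the Hes1 differences stood at percentiles 66.0, 99.3 and 57.8 in sets I, II and III. On the vehicle arrays of set II the Bacillus control median was 250 and 80.7 and the spike-in signal 320024 and 99139, both above the GnRH arrays, which had 78.3 and 59.6 for the controls and 73517 and 90036 for the spike-in. Their part in the Hes1 difference was not tested.

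Over all 12 arrays Hes1 differed by 1.05 ± 0.51 (SE, 6 arrays per group; limma adjusted p = 0.981). With low signals raised to the control median it was 0.62 (limma adjusted p = 0.999). The exact permutation test within sets, two-sided, gave p = 0.120, where the smallest value its 216 arrangements allow is 0.00926. GnRH exceeded vehicle in 24 of 36 pairs, and the signals overlapped, at 42.1 to 701 with vehicle and 334 to 688 with GnRH. The SD of log2 values was 1.59 with vehicle and 0.376 with GnRH. Hes1 was the 1 member of 7 that was higher with GnRH in all 3 sets, a pattern of 12.6% of tested probe sets.

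The response of Hes1 in set II exceeded that in set I by 2.77 on the log2 scale (limma adjusted p = 0.974), a value that rests on the same 2 vehicle arrays. The moderated F test over the 3 sets gave an adjusted p of 0.888. With array weights, which gave vehicle 3 the value 0.173, the overall difference was 0.50, and on the 7 arrays of high spike-in signal it was 2.06. Neither passed the adjusted threshold.

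**Figure D3:**
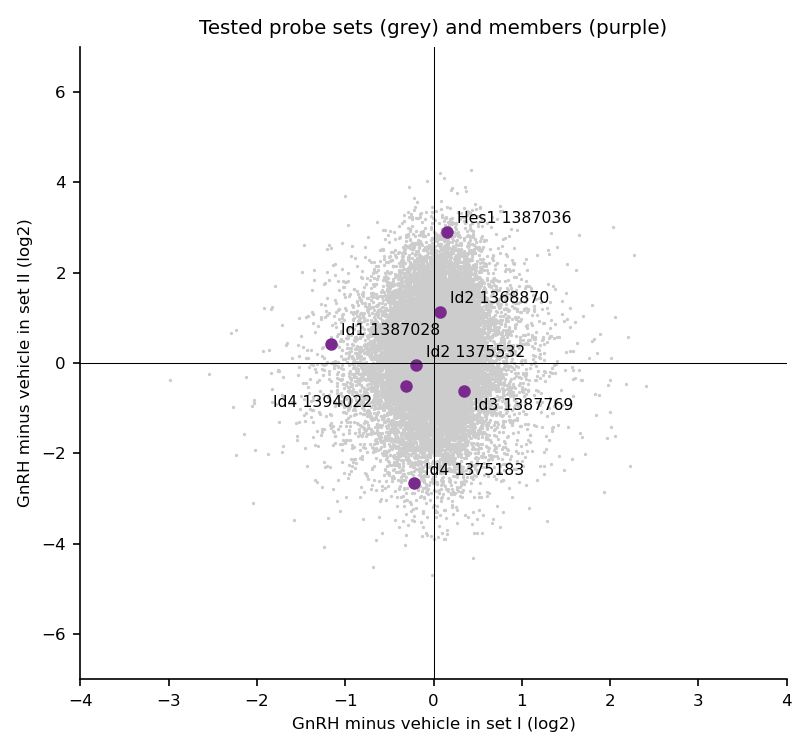
Log2 difference between GnRH and vehicle in set I (horizontal axis) against set II (vertical axis) for the tested probe sets (grey, axes limited) and the 7 tested members (purple). Id1 lies at -1.16 and 0.43, Hes1 at 0.15 and 2.91, and Id4 1375183 at -0.22 and -2.66.

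Id2, an E-protein inhibitor known for holding progenitors in cycle, was measured by 2 probe sets that followed each other weakly, with r = 0.15 across 12 arrays that share preparations and spike-in levels. The brighter one, 1375532_at, exceeded the controls' 90th percentile on 12 of 12 arrays. In set I its signal was 6336 and 5342 with vehicle and 4315 and 5956 with GnRH. In set II it was 1691 and 2378 with vehicle and 1457 and 2604 with GnRH, and in set III 3308 and 1221 with vehicle and 1006 and 952 with GnRH. The agents overlapped in sets I and II, and both GnRH values of set III lay below both vehicle values. The share of tested probe sets with that order was not counted in set III, and in set I it was 15.6%. By size, the set III difference stood at percentile 12.7 of tested probe sets.

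Over 12 arrays the brighter Id2 probe set differed by -0.42 ± 0.29 (SE, 6 arrays per group; limma adjusted p = 0.981; exact permutation p = 0.185, two-sided), a 1.34-fold lower signal with GnRH. It was lower in all 3 sets, by -0.20, -0.04 and -1.03, as were 11.4% of tested probe sets, and it was the 1 member of 7 with that pattern. The higher of the vehicle arrays in set III, vehicle 5 at 3308, was the 1 array of low spike-in signal in that set. Without vehicle 5 the difference over the remaining arrays was -0.17, and on the 7 arrays of high spike-in signal it was -0.15. In set III the summed gonadotrope markers differed between agents by 1.90 and those of somatotropes and lactotropes by 2.0 on the log2 scale. Linear signals were summed, so the brightest hormone genes weighed most. Cga and Lhb differed by 2.40 and 1.63, Gata2 by 0.53 and Scg2 by 0.03. Pitx1, Fshb, Foxl2, Gnrhr and Nr5a1 read -0.0023, -0.15, -0.37, -0.47 and -0.74. Gh1 differed by 2.54, and Prl, Ghrhr, Drd2 and Pou1f1 by 0.68, 0.48, 0.33 and -0.27. The gonadotrope sum of vehicle 5 was 42528, the lowest of all arrays, against 407835 on vehicle 6. Across the series these sums followed the spike-in signal. They were 42528 to 127018 on the arrays of low spike-in signal and 260233 to 512383 on the others. The part of these lists in the Id2 difference was not tested.

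The brighter Id2 probe set was the 1 of 7 tested member probe sets whose level differed between enrichment sets, where 6.02% of all tested probe sets did (limma moderated F, adjusted p = 0.0127). Its geometric mean signal in set I, 5431, was followed by 1976 in set II and 1402 in set III. Mean log2 values were 12.41 ± 0.24, 10.96 ± 0.39 and 10.47 ± 0.83 (SD, 4 arrays each), so sets II and III did not differ beyond their spread. The same level followed the spike-in signal: it was 3308 to 6336 on the 5 arrays of low spike-in signal and 952 to 2604 on the other 7. The ranges did not overlap, and geometric means differed 3.26-fold. The log2 difference between low and high spike-in arrays stood at percentile 94.1 of tested probe sets. How many tested probe sets had no overlap was not counted. Across 12 arrays r with the log2 spike-in signal was -0.78, and preparation and spike-in level largely cannot be told apart.

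The dimmer Id2 probe set, 1368870_at, ranged from 33.2 to 329 (median 180) with vehicle and from 34.2 to 428 (median 168) with GnRH. It exceeded the controls' 90th percentile on 7 of 12 arrays and lay below the control median on 3, vehicle 3, vehicle 4 and GnRH 5. Its geometric mean signals in the 3 sets, 152, 139 and 149, did not follow those of the brighter probe set (set effect, limma adjusted p = 0.997). Its difference was 0.03 ± 0.64 (SE; limma adjusted p = 1.00), with set values of 0.07, 1.14 and -1.10.

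**Figure D4:**
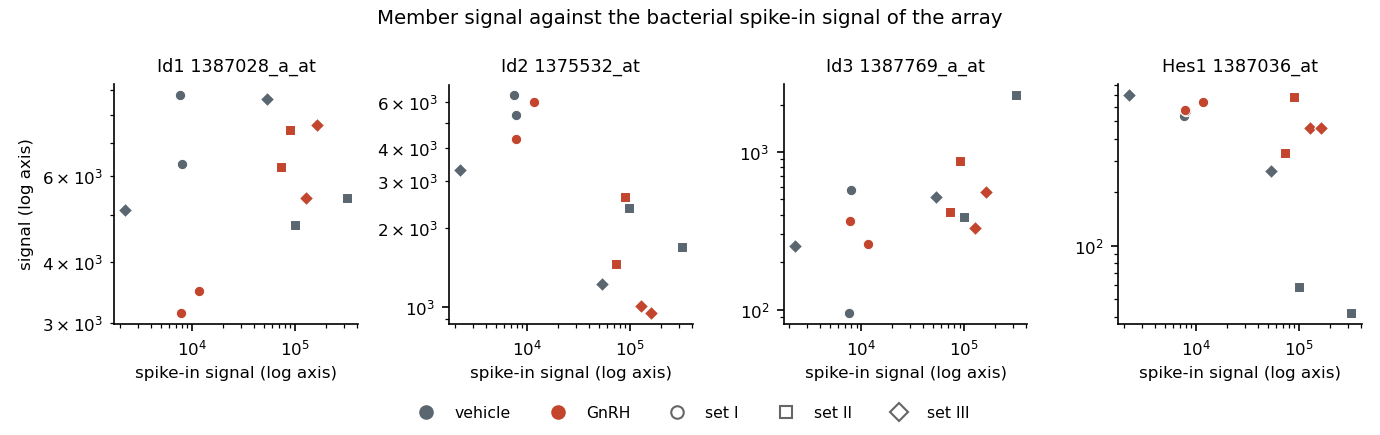
Signal of Id1, the brighter Id2 probe set, Id3 and Hes1 (vertical log axes) against the geometric mean signal of 18 bacterial spike-in probe sets on the same array (horizontal log axes), with vehicle in grey, GnRH in red and a symbol for each set. The Id2 values of the 5 low spike-in arrays (3308 to 6336) lie above all 7 others (952 to 2604).

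Id3, a close relative of Id1 that also binds E proteins, varied widely between duplicate arrays. In set I its signal was 95.6 and 574 with vehicle and 365 and 262 with GnRH. In set II it was 2286 and 387 with vehicle and 417 and 879 with GnRH. In set III it was 253 and 519 with vehicle and 330 and 557 with GnRH, so the agents overlapped in every set.

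The vehicle duplicates of Id3 differed by 2.40 and 2.51 on the log2 scale in sets I and II, where the median over tested probe sets was 0.40 and 1.10. The highest value, 2286, was on vehicle 3, the array that stood apart. Over 12 arrays the difference was -0.02 ± 0.51 (SE, 6 arrays per group; limma adjusted p = 1.00; exact permutation p = 0.981, two-sided), with 0.34, -0.63 and 0.23 by set. The interval of the fold, 0.465 to 2.09, allows a change of up to about that size in either direction.

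Id4, an ID protein that can also oppose the other ID proteins, had 4 probe sets, whose correlations with each other across 12 arrays ran from -0.17 to 0.63. The brightest, 1394022_at, exceeded the controls' 90th percentile on 10 of 12 arrays. Its signal ranged from 168 to 945 (median 546) with vehicle and from 318 to 675 (median 444) with GnRH, the GnRH range lying inside the vehicle range. The difference was -0.13 ± 0.40 (SE; limma adjusted p = 0.997), with -0.31, -0.52 and 0.44 by set.

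The second tested Id4 probe set, 1375183_at, had its widest gap in set II, where the signal was 239 and 687 with vehicle and 62.5 and 41.4 with GnRH. In set I it was 293 and 236 with vehicle and 197 and 255 with GnRH, and in set III 171 and 32.8 with vehicle and 204 and 86.3 with GnRH. The set differences were -0.22, -2.66 and 0.65. In set II both GnRH values and vehicle 3 lay below the Bacillus control median of their arrays, so -2.66 is a difference against background. Over 12 arrays it was -0.74 ± 0.62 (SE; limma adjusted p = 0.981; exact permutation p = 0.278, two-sided), and 6 of 12 arrays exceeded the controls' 90th percentile. Leaving out vehicle 4 gave -0.32 and leaving out vehicle 6 gave -1.16.

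Both probe sets of Id4 left untested were dim. The signal of 1375120_at was 31.7 to 1254 with vehicle (median 142) and 31.7 to 309 with GnRH (median 58.1), and 3 of 12 arrays exceeded the controls' 90th percentile. Its mean log2 difference was -1.04 (exact permutation p = 0.213, two-sided), the highest value was again on vehicle 3, and without that array the difference was -0.57. The signal of 1385923_at was 6.24 to 824 with vehicle and 11.7 to 197 with GnRH, and its difference was -0.58 (exact permutation p = 0.565, two-sided). All 4 probe sets of Id4 had a lower mean with GnRH, but they disagreed in sign within set I and within set III.

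The series' design text called a gene up when the fold was at least 1.50 and at least 50% of pairwise comparisons agreed. Agreement was taken here as the share of the 36 GnRH-vehicle pairs that reached a fold of 1.50. Change calls of GCOS, the authors' array software, were not recomputed, so the counts are not those of the study. With the rule in this form applied to signal plus 16, 0 of 7 tested members were up, against 7.62% of tested probe sets. Hes1 reached a fold of 1.50 in 47.2% of its 36 pairs, with 13.9% past it in the other direction. All its pairs with vehicle 3 and vehicle 4 reached that fold. Its signal there lay below the Bacillus control median, so these pairs are ratios to background. Mirrored for lower signals, the rule held for 1 of 7, Id4 1375183_at, with 50% of pairs, against 7.6% of tested probe sets. The untested Id4 1375120_at also met the rule, with 58.3% of pairs. The signal of 1375183_at lay below the Bacillus control median on 4 of 12 arrays, vehicle 3, vehicle 6, GnRH 3 and GnRH 4. Its pairs that include these arrays are comparisons with background, and 1375120_at exceeded the controls' 90th percentile on only 3 of 12 arrays. For no member did the 6 GnRH arrays and the 6 vehicle arrays lie apart without overlap, which 0.107% of tested probe sets did.

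Members did not move as 1 block across arrays. With set means removed, r over 12 arrays was 0.14 between Id1 and Hes1 and -0.60 between Hes1 and Id4 1375183_at. These arrays share preparations and scaling, so the correlations are descriptions. In set II, Hes1 and Id4 1375183_at each had values below the Bacillus control median. Genes whose log2 values were most like each member after removal of set means were Pop5, Mtg1 and Tysnd1 for Id1 (r = 0.88, 0.84 and 0.83) and Spidr, Wars2 and Ankrd50 for Id2 (0.92, 0.91 and 0.91). For Hes1 they were Ube3a, Eeig1 and Adam1a (0.95, 0.95 and 0.94), among 211 of 10679 genes with r above 0.8. Like Hes1 (2.91), these 3 genes had wide differences in set II, at 2.94, 2.52 and 2.99. With set means kept, Cebpg, Wars2 and C17h7orf25 came closest to Id2 (0.95 each), and Rdh11, Hes6 and Emd to Id1 (0.77, 0.77 and 0.75). For Hes1 these were Eeig1, Stard13 and Prdx4 (0.96, 0.96 and 0.95).

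Id3 was most like Gbf1, Snrpd2 and Exosc4 after removal of set means (r = 0.93, 0.90 and 0.88) and like Vps37d, Tor1a and Slain2 with set means kept (0.89, 0.87 and 0.87). Id4 was most like Wapl, Nudt11 and Pax6 (0.92, 0.91 and 0.89), and with set means kept like Nudt11, Pax6 and Mllt3 (0.92, 0.89 and 0.89).

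Genes that feed into or partner with the ID and HES proteins were described from 9 lists with 66 tested genes of 102 listed. None passed the adjusted threshold in either direction by limma, and none had an unadjusted p under 0.05, against 1 and 351 of 10680 tested genes. Of the 66, 36 were higher and 30 lower with GnRH, or 54.5% higher, against 54.6% of all tested genes. The median log2 difference of all tested genes was 0.04, and adjusted p-values of the genes named here were at least 0.981 (limma). Values below are log2 differences ± SE over 6 arrays per group.

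Of the other HES, HEY and BHLHE repressors, 4 of 6 tested were higher (median 0.09). Hey1, a Notch target, differed by 0.70 ± 0.51, and Hey2, its relative, by -0.60 ± 0.67. Hey1 was lower in set I (-0.86) and higher in sets II and III (1.35 and 1.60). Hes6, which antagonizes HES1, differed by 0.08 ± 0.27. Bhlhe40 and Bhlhe41, clock-linked repressors, differed by 0.10 ± 0.45 and -0.03 ± 0.38.

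Among E proteins, which ID proteins bind, 2 of 3 were tested (1 higher, 1 lower; median 0.11). Tcf4 differed by 0.43 ± 0.27 and Tcf12 by -0.21 ± 0.61. A further probe set of Tcf4 read 0.11 and a further one of Tcf12 read 0.68. Of the class II activators that pair with E proteins, 9 of 21 were tested and 7 were higher (median 0.35). Neurod1, an activator used in the corticotrope lineage, differed by 0.39 ± 0.54.

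Upstream of the ID genes, 10 BMP ligands, receptors and antagonists split 5 and 5 (median 0.02), and 8 SMAD-list genes split 4 and 4 (median -0.04). Bmpr1a, a type I BMP receptor, differed by -0.64 ± 0.52. The BMP-activated Smad1 and Smad5 differed by -0.10 ± 0.35 and -0.14 ± 0.27, and the 3 tested probe sets of Smad5 ran from -1.04 to -0.03. The inhibitory Smad6 and Smad7 differed by -0.14 ± 0.51 and 0.33 ± 0.38.

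Upstream of Hes1, 4 of 6 Notch receptors and ligands were higher (median 0.15), and of 15 processing and nuclear genes 6 were higher and 9 lower (median -0.01). Notch1 differed by -0.15 ± 0.69 and Jag1, a Notch ligand, by 0.16 ± 0.51. Rbpj differed by -0.22 ± 0.41, and a dimmer probe set of it read -1.11. Of 5 TLE corepressors 3 were higher (median 0.04), with Tle1 at 0.04 ± 0.34 and Tle3 at 0.60 ± 0.39.

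Of 5 cyclin-dependent kinase inhibitors, genes that bHLH factors and HES1 regulate in other tissues, 2 were higher and 3 lower (median -0.07). Cdkn1a differed by 0.92 ± 0.55 and Cdkn1c by -0.20 ± 0.64. Cdkn1a had its widest gap in set II, at 2.25 against 0.14 in set I and 0.36 in set III. A difference of 1 or more in set II was common, at 21.8% of tested probe sets, and the share at 2.25 or more was not counted.

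**Figure D5:**
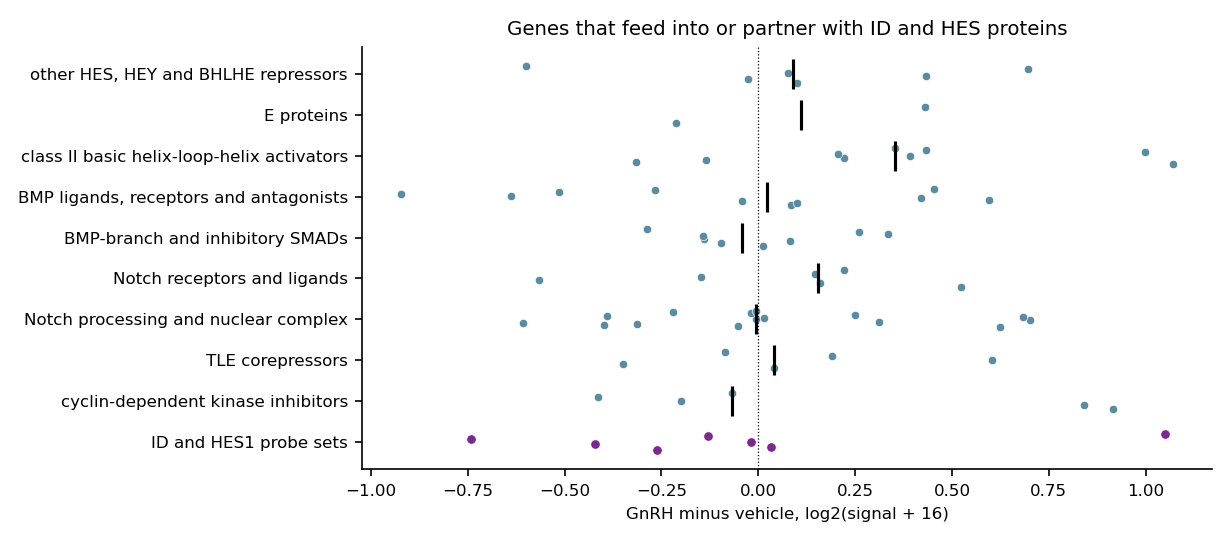
Log2 difference between GnRH and vehicle over all arrays for each tested gene of the 9 pathway lists (blue points; black bar, list median) and for the 7 tested member probe sets (purple). List medians lie between -0.07 and 0.35, and no point passed the adjusted threshold.

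Marker genes of the cell types the cultures could hold were not called either by limma, with 0 in each direction in all 8 lists. At an unadjusted p under 0.05, 2 of 41 tested markers counted, and both are named here after their values were seen. Pomc, the hormone precursor gene that defines corticotropes, was at -1.77 ± 0.50 (SE; limma adjusted p = 0.981), with -0.55, -2.35 and -2.40 by set. Pomc exceeded the Bacillus controls' 90th percentile on only 6 of the arrays. Its mean log2 with GnRH was 7.34, near the level of 7.35 required for testing. The Pomc differences are therefore not read as measured folds. Anxa1, of the folliculostellate list, was at 0.62 ± 0.29 (SE; limma adjusted p = 0.981). Median log2 differences were 0.18 for 9 gonadotrope markers, 0.27 for 5 of somatotropes and lactotropes, 0.56 for 3 of corticotropes, Pomc among them, and -0.64 for 3 of thyrotropes. They were 0.01 for 7 folliculostellate and stem cell markers, 0.24 for 3 endothelial, -0.03 for 6 of fibroblasts and pericytes and -0.29 for 5 leukocyte markers. In set II, where Hes1 and Id4 1375183_at differed most, the summed signals of these lists differed between agents by -0.66 (somatotropes and lactotropes) to 0.83 (folliculostellate and stem cells). The summed folliculostellate and stem cell signal ranged from 5925 to 12736 with vehicle and from 8490 to 14092 with GnRH. The part of these lists in the Hes1 and Id4 differences was not tested.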

How the data were processed

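The deposited table holds linear intensity signals, 1 per probe set, from 12 Affymetrix Rat 230 2.0 arrays. The authors computed them with GCOS, as named in the design text and, likewise, per the submitters' processing notes. Its version is not given in the sources used, nor are its settings. RNA was amplified in 2 rounds with T7 polymerase, per the labels' protocols. Scanner files were not used. Arrays were brought to the same trimmed mean, 500, over non-control probe sets (2% cut at each end), a pseudocount of 16 was added and log2 was taken. The deposited trimmed means were 497 to 499. Probe sets with a mean log2 at or above the 40th percentile were tested in limma 3.58.1 under R 4.3.3, with enrichment set and agent in the model, an intensity trend and Benjamini-Hochberg adjustment at 0.05. Single probe sets also had an exact permutation test of the agent within sets. Scripts were checked on simulated data. Depth has no counterpart on arrays; the number of arrays, 6 per group, limits the precision.

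The text names all member probe sets, a fixed choice of pathway genes, and the 3 genes most like each member's brightest tested probe set. A gene with several tested probe sets was represented by the brightest. Of the chosen pathway genes, Tcf3, Neurod4, Bmp4, Bmpr2, Notch2 and Dll1 had no tested probe set with 1 symbol, and another gene is not reported here. The members and lists were chosen with earlier results of these data known. Alternatives covered the pseudocount, scaling, filter, model terms, array weights and the arrays used.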

Additional observations from a re-analysis of the deposited data

Results flagged for a closer look

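Id1 was the 1 member for which both GnRH arrays lay below both vehicle arrays in set I and above them in set II, a pattern of 2.6% of tested probe sets. The set II difference exceeded the set I difference by 1.59 on the log2 scale. limma gave this difference an adjusted p of 0.974, so it failed the correction. In 18 groups of 6 arrays examined for a sample far from the rest, 0 were found. Single arrays still stood high without being flagged. Vehicle 3 read 2286 for Id3, where the next vehicle value was 574. For Id4 1375120_at it read 1254, and the next was 270.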

How the results depend on the processing

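No member was called in any of 27 other settings, and the lowest adjusted p was 0.440 (Id1, -0.82 with limma array weights). Of 198 differences under settings that can move the estimate, 171 kept their sign. The count of all probe sets called, 1, became 0 with a pseudocount of 1, quantile normalization, a filter at the 60th percentile, no set term, no intensity trend, the replicate block, the high spike-in arrays or a single set, and 2 with array weights. Leaving out 1 array gave 0 to 1. Replicate numbers did not pair the samples: correlations of same-numbered deviations were -0.03, -0.03 and -0.14 over the sets, and under the replicate block Hes1 stayed at 1.05 (limma adjusted p = 1.00). Signs turned for Id1 on the high spike-in arrays (0.0861) and in set II alone (0.43), and for the dimmer Id2 probe set with quantile normalization (-0.059) and in set III alone (-1.10). They turned for Id3 with a pseudocount of 1 (4e-04), array weights (0.32), set I (0.34) and set III (0.23). In Id4 they turned in set III alone for 1375120_at (0.0094), 1375183_at (0.65) and 1394022_at (0.44), on the high spike-in arrays for 1394022_at (0.22), and for 1385923_at with array weights (0.16) and in set I (0.34). Leaving out 1 array moved the dimmer Id2 probe set from -0.39 (without vehicle 4) to 0.48 (without GnRH 5), Id3 from -0.36 (vehicle 1) to 0.37 (vehicle 3), Id4 1385923_at from -1.05 (vehicle 4) to 0.0577 (vehicle 3) and Id4 1394022_at from -0.42 (vehicle 6) to 0.0184 (vehicle 5). Hes1 ranged from 0.69 (without GnRH 4) to 1.34 (without vehicle 5), Id1 from -0.38 to -0.09 (without vehicle 1), the brighter Id2 probe set from -0.57 to -0.17 (without vehicle 5), Id4 1375183_at from -1.16 (without vehicle 6) to -0.32 (without vehicle 4) and Id4 1375120_at from -1.49 (without vehicle 5) to -0.57 (without vehicle 3). Raising low signals to the control median, chosen after seeing the data, gave 0.62 for Hes1. With the mean of a gene's tested probe sets, Id2 was -0.19 and Id4 -0.44. The causes of these changes were not tested. Signals near the Bacillus controls limit what Hes1 in set II and the dim Id2 and Id4 probe sets can show.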

Other observations

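Among the cyclin-dependent kinase inhibitors, Cdkn1b, a brake on the cell cycle that HES1 represses in other tissues, was singled out after its values were seen. Its log2 difference between GnRH and vehicle was 2.84 in set II, against 0.39 in set I and -0.71 in set III. Set II held vehicle 3, the array that stood apart, and its part in the Cdkn1b difference was not tested. In set II 21.8% of tested probe sets were higher with GnRH by 1 or more, and the share at 2.84 or more was not counted. Over 6 arrays per group Cdkn1b differed by 0.84 ± 0.45 (SE; limma adjusted p = 0.981). limma's moderated F test for unequal responses between sets gave an adjusted p of 0.684, so it failed the correction.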
